A study of Mus musculus with 12 samples.

Results

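Atg16l1, the autophagy scaffold gene, was measured by 1 probe of a NanoString nCounter mouse immune panel in hippocampal microglia, the resident macrophages of the brain. The genes were chosen by name from the autophagy conjugation machinery (Atg5, Atg7, Atg10, Atg12 and Atg16l1). Of these 5 names, 1 was matched in the raw count table, out of 545 endogenous genes. The other 4 were not analysed here, so the values describe the scaffold gene alone and not the conjugation machinery as a group. The panel counts a fluorescent barcode for each transcript without sequencing.

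The animals were male mice of the strain written Balbc in the labels, aged 28 days. The BDS pups (brief daily separation) had been taken from the mother for 15 min each day from postnatal day 1 to 21. The labels call the other pups control and say no more of their handling. Each group held 6 samples, which were treated as biological replicates. The design text compares groups from different litters, and the litter of each sample was not recorded here. The cells had been purified on Percoll and sorted by fluorescence, and 2 ng of RNA per sample was amplified in 5 PCR rounds before hybridization. Neither group carried an engineered allele in the labels.

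Autophagy encloses cytoplasm, damaged organelles or microbes in a double membrane that then fuses with lysosomes. ATG7 activates the ubiquitin-like protein ATG12, ATG10 passes it to ATG5, and the resulting conjugate binds the scaffold ATG16L1. The complex directs the attachment of LC3 proteins to lipid at the growing membrane. ATG16L1 also acts where LC3 is attached to single membranes, as in LC3-associated phagocytosis, a route by which macrophages handle engulfed material. None of this background was measured here, since a transcript count does not give autophagic activity.

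The Atg16l1 probe is listed under the RefSeq transcript NM_029846.3. The RefSeq gene table of GRCm38.p6 gives 3 curated transcripts for the gene, and the files do not say which of them the probe binds. The files name no genome build, so no coordinates are given, and no sequence of the probe or of the gene's promoter was used here.

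Total counts over endogenous and housekeeping genes were 592159 to 1129518 in BDS samples and 846414 to 1373840 in control samples (two-sided exact permutation p = 0.063, n = 6 each). Of the microglial markers on the panel, 7 of 7 were above background in enough samples to be tested. Of 17 markers of other cell types on the panel, 9 were, while in 0 of 12 samples did Cd3d, Cd3e, Gzmb or Cd163 exceed background. Summed normalized counts of the microglial markers were 188199 to 239733 in BDS and 198584 to 212926 in controls. Those of the 17 other markers were 1682 to 1988 in BDS and 1758 to 2301 in controls, and their part in the results was not tested. BDS 21, BDS 25 and BDS 55 stood apart from the other 9 samples in the ratio of Rpl19 to Polr2a counts. That ratio was 0.47 to 0.79 in those 3 samples and 0.11 to 0.27 in the others. The 3 samples also had the lowest housekeeping scaling factors, at 0.61 to 0.85 against 0.87 to 1.47. The factors did not set BDS 55 apart, at 0.854 against 0.875 in control 5.

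Atg16l1 was well above background in every sample. Its count was 50.1 to 117 times the mean of the negative-control probes in BDS samples and 90.9 to 143 times that mean in controls. Barcode counts in BDS were 1026 in BDS 7, 514 in BDS 21, 454 in BDS 25, 855 in BDS 35, 1291 in BDS 43 and 656 in BDS 55. In controls they were 921 in control 5, 873 in control 9, 932 in control 13, 1261 in control 27, 1113 in control 44 and 1378 in control 54. The lowest 3 counts of all were those of the 3 BDS samples with the lowest scaling factors, while BDS 43 had the second highest count of the series. The mean raw count was 799 ± 322 in BDS and 1080 ± 206 in controls (SD, n = 6; two-sided exact permutation p = 0.11).

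Scaling each sample to 6 housekeeping genes narrowed the range. Normalized counts of Atg16l1 in BDS were 932 in BDS 7, 844 in BDS 21, 699.9 in BDS 25, 839 in BDS 35, 1005 in BDS 43 and 768 in BDS 55. In controls they were 1053 in control 5, 806 in control 9, 901 in control 13, 922 in control 27, 1065 in control 44 and 937 in control 54. The groups overlapped. BDS 25 and BDS 55 lay below the lowest control, control 5 and control 44 lay above the highest BDS sample, and 5 of 6 BDS samples lay below the control mean.

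**Figure D1:**
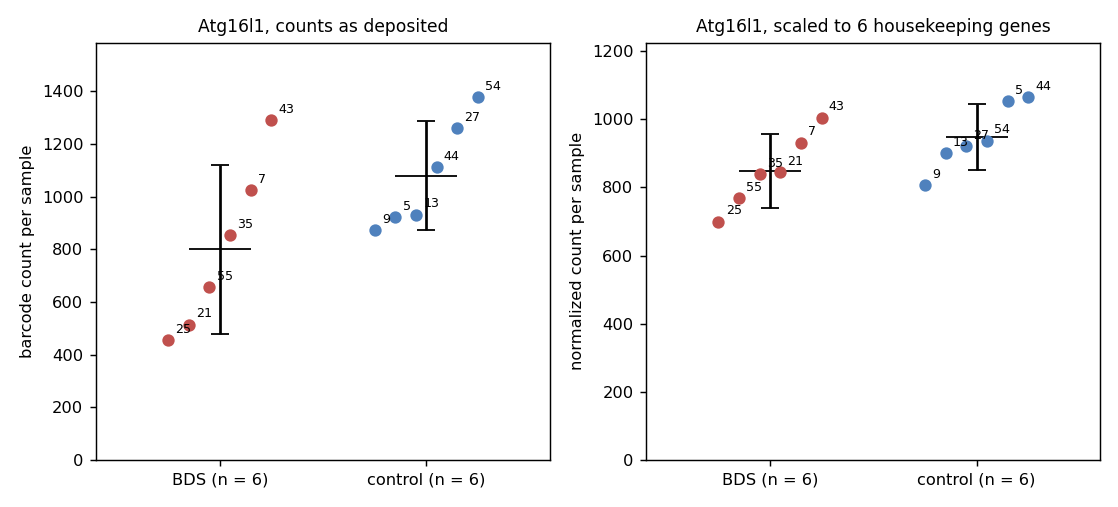
Atg16l1 in each sample, as deposited barcode counts (left, vertical axis from 0) and as counts scaled to 6 housekeeping genes (right). Points are samples with their numbers, sorted by value within a group, and bars give the mean ± SD (n = 6). The normalized ranges overlap, at 699.9 to 1005 in BDS and 806 to 1065 in controls.

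The first comparison asked whether the scaffold gene differed in microglia after early separation. Atg16l1 averaged 848 ± 110 normalized counts in BDS and 947 ± 98 in controls (SD, n = 6). The log2 fold change was -0.16 ± 0.10 (SE), with a 95% interval of -0.38 to 0.06, which is a ratio of 0.896 (0.768 to 1.05). It did not pass the threshold (edgeR quasi-likelihood test, adjusted p = 0.47 over 357 genes). A two-sided exact permutation test on the normalized counts gave p = 0.13, where the smallest possible p is 0.0022. The interval leaves room for a decrease of the size of its lower bound as well as for no difference. In these bulk samples fewer cells of a type and less RNA per cell cannot be told apart.

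Set against the panel, Atg16l1 was in the middle. In the same edgeR test 0 of 357 genes (0%) had an adjusted p under 0.05, and 44 (12.3%) had an unadjusted p under 0.05. DESeq2 with the same scaling called 6 genes and limma called 0, and Atg16l1 was not called by either. Log2 fold changes were below 0 for 66.1% of the tested genes (52.1% with TMM scaling, 98.3% with positive-control scaling), with a median of -0.10, so that Atg16l1 lay 0.06 below the median. A lower log2 fold change than that of Atg16l1 was found for 143 genes, and a smaller p-value for 111 genes (31.1%). All BDS samples lay below all controls for 1.12% of the genes, and Atg16l1 was not among them.

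Atg16l1 varied less between samples of a group than the median gene did. The coefficient of variation was 12.9% in BDS and 10.3% in controls, where the medians over the tested genes were 19.4% and 14.8%. A smaller coefficient was found for 74 genes in BDS and for 110 genes in controls. The medians include genes near background, such as Cybb at 43.1% in BDS and 36.3% in controls. They were not matched to the count level of Atg16l1, so the comparison does not set this gene apart from others of its level. Counting error alone would give 3.7% in BDS and 3.1% in controls. These figures are lower bounds, because they treat amplified molecules as independent, which PCR products are not.

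The size of the difference depended on the 3 BDS samples with the lowest scaling factors. BDS 21, BDS 25 and BDS 55 averaged 771 ± 72 normalized counts (SD, n = 3), the other 3 BDS samples 925 ± 83 (SD, n = 3), and the controls 947 ± 98 (SD, n = 6). Without those 3 samples the log2 fold change of Atg16l1 was -0.03 ± 0.11 (SE; edgeR, adjusted p = 0.98), and it was then 0.05 above the panel median instead of 0.06 below it. The lowest Atg16l1 values of the series were those of BDS 25 and BDS 55, so leaving them out raises the BDS mean in any case. Whether the low scaling factors or the high ratio of Rpl19 to Polr2a play a part in the lower values was not tested.

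The scaling mattered as well. TMM, which scales each sample to the tested genes, placed the panel median at -0.01 and gave Atg16l1 a log2 fold change of -0.06 ± 0.09 (SE; edgeR, adjusted p = 0.77). Scaling to the positive-control probes, which are added in equal amount to each sample, moved the panel median to -0.50 and Atg16l1 to -0.50 ± 0.36 (SE; edgeR, adjusted p = 0.32). Relative to the panel median Atg16l1 thus lay at -0.05 with TMM and at -0.001 with the positive controls. With TMM and without BDS 21, BDS 25 and BDS 55 together, its log2 fold change was 0.03 ± 0.09 (SE).

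**Figure D2:**
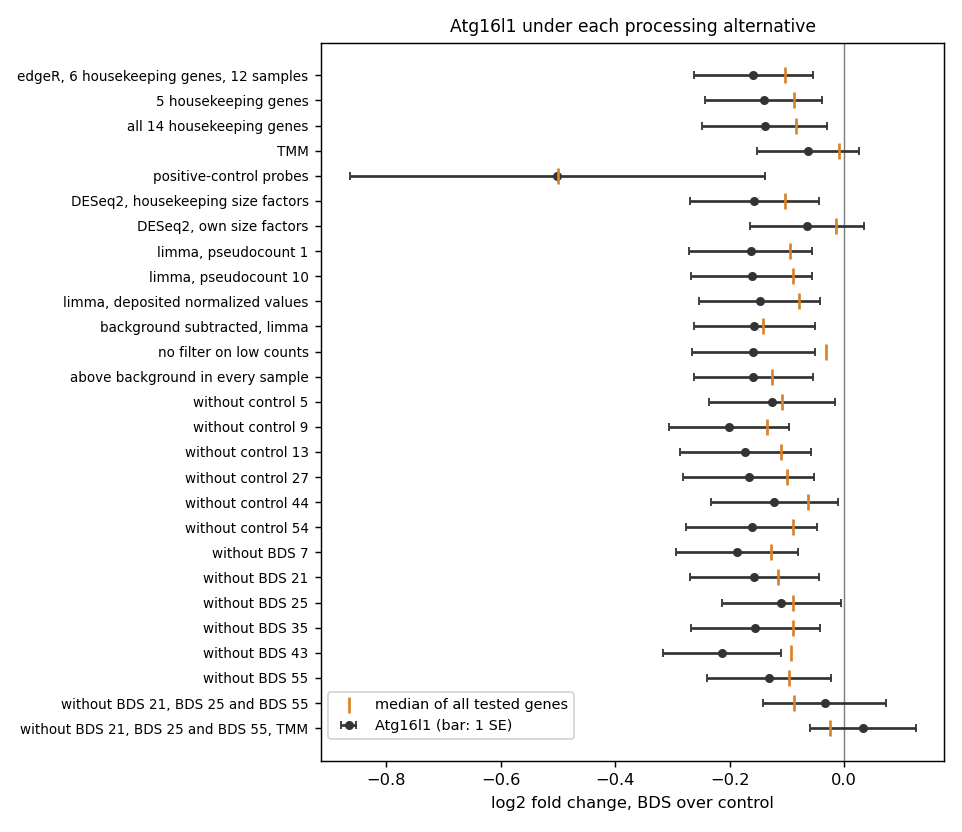
Log2 fold change of Atg16l1, BDS over control, under the reported processing (top) and each alternative, with bars of 1 SE and an orange tick at the median of all tested genes. With 1 sample left out the estimates run from -0.21 to -0.11. They are -0.06 under TMM, -0.50 under positive-control scaling, -0.03 without BDS 21, BDS 25 and BDS 55, and 0.03 without those under TMM.

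A ratio of 2 probes in the same sample needs no scaling factor, so Atg16l1 was also set against each of the 14 housekeeping genes. The log2 ratio was lower in BDS for 12 of them and higher for 2. All 14 ratios share the Atg16l1 count and 6 of the genes also set the scaling. The ratios are therefore not independent, and the number below 0 is no separate support for a decrease. The difference, BDS minus control, was -0.29 against Gapdh, a glycolytic enzyme, -0.24 against Sdha, a subunit of mitochondrial succinate dehydrogenase, and -0.20 against Alas1, the first enzyme of haem synthesis. Against Tbp, the TATA-binding protein, the difference was -0.08, and against Polr1b, a subunit of RNA polymerase I, it was 0.05. The extremes were Rpl19, a ribosomal protein gene, at -0.58 and Polr2a, the large subunit of RNA polymerase II, at 0.45. In two-sided exact permutation tests with 6 samples per group the p-value was 0.030 against Rpl19 and 0.093 or more against the rest. After Benjamini-Hochberg adjustment over the 14 ratios the smallest p was 0.32.

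**Figure D3:**
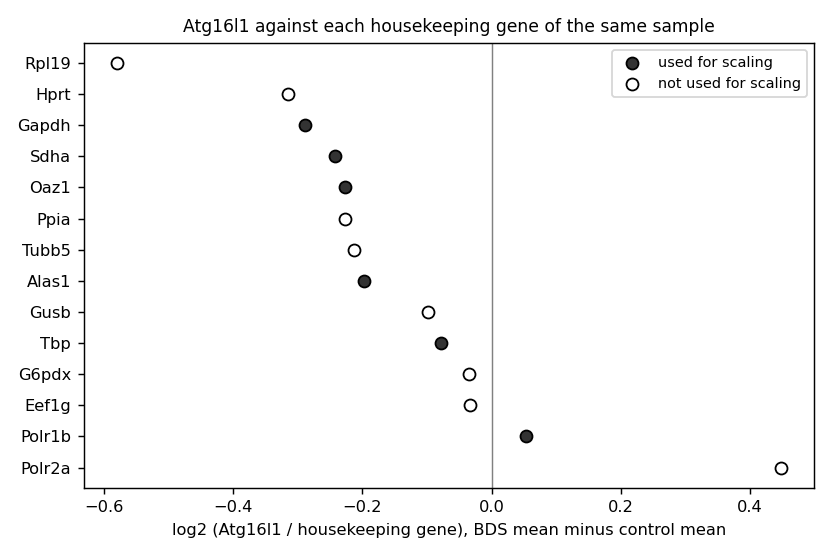
Difference between the BDS mean and the control mean of the log2 ratio of Atg16l1 to each of 14 housekeeping genes of the same sample (n = 6 per group). Filled points are the 6 genes used for scaling. The differences run from -0.58 against Rpl19 to 0.45 against Polr2a, with 12 below 0.

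The authors' deposited table gives Atg16l1 a normalized mean of 912 in BDS and 1006 in controls, a fold of 0.91 and a p-value of 0.16, and lists it as above background in 100% of samples.

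The second comparison asked whether genes linked to autophagy, or to immune sensing that connects to it, differed alongside the scaffold gene. Of 46 listed genes, 9 were matched on the panel and 8 were above background in enough samples to be tested. No listed gene passed the adjusted threshold. Log2 fold changes were below 0 for 7 and above 0 for 1, with a median of -0.17 against -0.10 over all tested genes. An unadjusted p under 0.05 (edgeR) was found for 2, Cybb and Ddx58. Cybb entered the tested set through 4 controls and 1 BDS sample above background, so its p-value is no support for a difference. Over all tested genes, 66.1% lay below 0, 12.3% had an unadjusted p under 0.05 and 0% an adjusted one. With TMM scaling 52.1% of all tested genes lay below 0. Of the listed genes, Tbk1 (0.0073) and Tmem173 (0.42) then lay above 0 and the others below it.

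Ddx58 encodes RIG-I, a cytosolic sensor of viral RNA that signals through MAVS. Its normalized counts had a lowest value, median and highest value of 668, 947 and 1129 in BDS, and of 989, 1130 and 1308 in controls. The log2 fold change was -0.28 ± 0.12 (SE; edgeR, adjusted p = 0.38). Its unadjusted p of 0.037 (edgeR) depended on the scaling. That p was 0.082 with all 14 housekeeping genes and 0.15 with TMM, where the log2 fold change of Ddx58 was -0.18. Without BDS 21, BDS 25 and BDS 55 it was -0.09 (edgeR, adjusted p = 0.97). Ifih1, which encodes MDA5, a second RNA sensor of the family, had 402 ± 66 normalized counts in BDS and 488 ± 83 in controls (SD, n = 6), a log2 fold change of -0.28 ± 0.14 (SE). Without the same 3 samples it was -0.11.

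Tollip, an adaptor of Toll-like and interleukin-1 receptors that in human cells also acts as an autophagy receptor, had 1112 ± 233 normalized counts in BDS and 1281 ± 88 in controls (SD, n = 6). Its 3 lowest values were 851 in BDS 55, 860 in BDS 25 and 1048 in BDS 21, below every control, and the other 3 BDS samples lay among or above the controls. The log2 fold change of -0.20 ± 0.13 (SE) turned to 0.02 without those 3 samples.

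Tbk1, a kinase that phosphorylates autophagy receptors and interferon regulatory factors, averaged 1755 ± 303 in BDS and 1862 ± 205 in controls (SD, n = 6). Its log2 fold change of -0.08 turned to 0.01 with TMM and to 0.09 without the 3 samples. Irgm1, an interferon-inducible GTPase linked to autophagy of microbes, averaged 721 ± 131 in BDS and 770 ± 83 in controls (SD, n = 6), a log2 fold change of -0.09 that turned to 0.04 without those samples. The signs of Tollip, Tbk1 and Irgm1 thus did not hold without those 3 samples, where Atg16l1 lay within 1 SE of 0. Those 3 samples held the lowest 3 BDS values of Tollip, Tbk1, Irgm1, Ddx58 and Ifih1. Leaving them out raises the BDS mean in any case, so the change of sign is no separate result.

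The other listed genes were near the detection limit. Cybb encodes the catalytic chain of the phagocyte NADPH oxidase, which is needed for LC3-associated phagocytosis. Its normalized counts in BDS were 9.99 in BDS 7, 21.4 in BDS 21, 10.8 in BDS 25, 6.87 in BDS 35, 16.3 in BDS 43 and 9.37 in BDS 55. In controls they were 22.9 in control 5, 14.8 in control 9, 17.4 in control 13, 26.3 in control 27, 40.2 in control 44 and 28.6 in control 54. The groups overlapped through BDS 21, BDS 43, control 9 and control 13. Cybb was above background in 1 of 6 BDS samples and 4 of 6 controls. It thus met the filter, 5 of 12 samples above background, mainly through the group where it was higher. Its log2 fold change was -1.03 ± 0.29 (SE; edgeR, adjusted p = 0.17), and the filter makes that p-value no support for a difference. The ratio is imprecise, because counts at this level contain background. The log2 fold change was -2.84 with background subtracted and -0.63 with a pseudocount of 10 (limma, adjusted p = 0.16 and 0.23).

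Bcl2, whose protein binds the autophagy initiator Beclin 1, averaged 27.7 ± 4.6 normalized counts in BDS and 30.2 ± 7.0 in controls (SD, n = 6), with 4 of 6 BDS samples and 6 of 6 controls above background. Tmem173 encodes STING, an adaptor of cytosolic DNA sensing that can also trigger LC3 attachment. It averaged 21.9 ± 9.2 normalized counts in BDS and 17.0 ± 6.5 in controls (SD, n = 6), with 2 of 6 BDS samples and 3 of 6 controls above background. Nod2, a sensor of bacterial peptidoglycan that recruits ATG16L1 to the site of bacterial entry, was above background in 0 of 6 BDS samples and 1 of 6 controls and was not tested. It had 7 to 17 counts in BDS and 9 to 24 in controls.

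**Figure D4:**
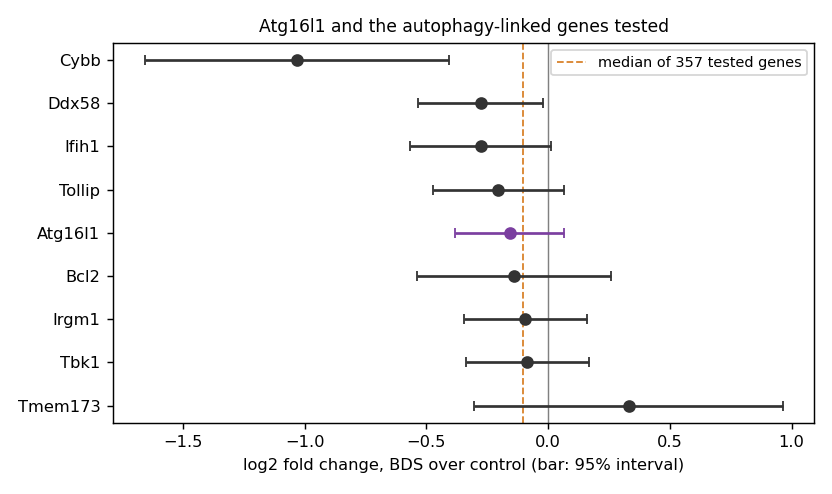
Log2 fold change, BDS over control, of Atg16l1 (purple) and the 8 autophagy-linked genes tested, with 95% intervals from edgeR. The dashed line is the median of the 357 tested genes at -0.10. The interval of Atg16l1 runs from -0.38 to 0.06. Those of Cybb and Ddx58 lie wholly below 0 under the reported scaling, and Cybb met the filter mainly through controls.

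The genes whose pattern over the 12 samples was most like that of Atg16l1 were taken by Pearson correlation of log2 normalized counts. Stat5a, a transcription factor downstream of cytokine receptors, ranked highest of 356 genes, with r = 0.88 (Spearman rho = 0.87, n = 12 samples). Tnfaip3, which encodes the ubiquitin-editing enzyme A20, followed with r = 0.86 (rho = 0.78), and Map4k4, a serine/threonine kinase, with r = 0.85 (rho = 0.72). The median r over the 356 genes was 0.27, and all genes of a sample share its scaling factor. With TMM scaling that median was -0.02, and r was 0.79 for Stat5a, 0.67 for Tnfaip3 and 0.69 for Map4k4.

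Stat5a also ranked highest with TMM, where Tnfaip3 ranked 7 and Map4k4 ranked 6. In a check that was not planned, on deviations from the group means, Stat5a ranked highest too (r = 0.86). In the 9 samples without BDS 21, BDS 25 and BDS 55, r was 0.77 for Stat5a, 0.69 for Tnfaip3 and 0.69 for Map4k4, and their ranks were 5, 10 and 14. Normalized counts of Stat5a averaged 306 ± 46 in BDS and 362 ± 19 in controls (SD, n = 6). The lowest Stat5a value lay in BDS 25, as did the lowest Atg16l1 value. These correlations describe samples that share a depth and a scaling factor, and no test is given for them.

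**Figure D5:**
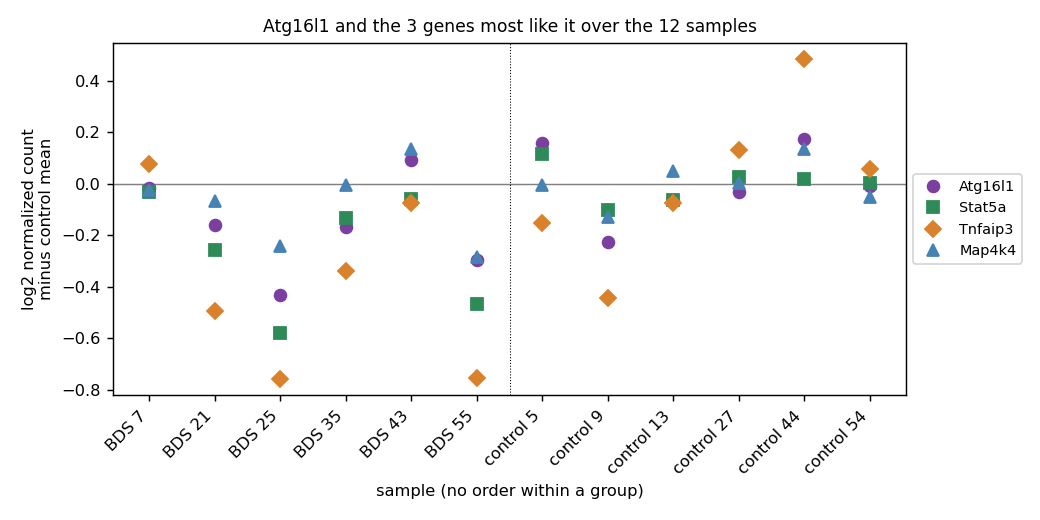
Log2 normalized counts minus the control mean in each sample, for Atg16l1 and for Stat5a, Tnfaip3 and Map4k4, with BDS samples left of the dotted line and controls right of it. The 4 genes are all low in BDS 25 and BDS 55, and Tnfaip3 spans the widest range.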

How the data were processed

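Barcode counts per probe are as deposited, with no normalization by the authors. The second table holds scores, which per the labels' design text are counts normalized by the authors to positive controls and to housekeeping genes, here rounded to whole numbers. Per the file headers it also holds group means (scores), the percent of samples above background, a fold (linear ratio) and an unadjusted p-value. No barcode reading software is named.

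The scaling factor of a sample was the geometric mean of its 6 housekeeping counts (Alas1, Gapdh, Oaz1, Polr1b, Sdha, Tbp), set to a geometric mean of 1 over samples. Of 545 endogenous genes, 357 exceeded their 8 negative controls (mean plus 2 SD) in at least 40% of samples (5 of 12). BDS was compared with control over all 357 by edgeR 4.0.16 (R 4.3.3, quasi-likelihood test, Benjamini-Hochberg, threshold 0.05), which was tested on simulated data. DESeq2 1.42.0 and limma 3.58.1 (log2 values, pseudocounts 1 and 10) were alternatives. Named genes were Atg16l1, up to 10 listed autophagy genes, the 3 most correlated genes, housekeeping genes and markers. The member and the lists were chosen with earlier results of these data known. The planned median over several members and ratios between them were not computed, since 1 member was matched.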

Additional observations from a re-analysis of the deposited data

Results flagged for a closer look

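Irgm1 in BDS 7 had 980.7 normalized counts, far above the other 5 BDS samples, of which the nearest had 713. The rule used for such flags marks a sample in about 1 of 20 groups of this size by chance alone. This was the only one among 24 groups checked, and 1 flag in that many groups can be expected by chance. The log2 fold change of Irgm1 without BDS 7 was -0.20 (edgeR, adjusted p = 0.17), against -0.09 with it. Neither group of Atg16l1 held such a sample.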

How the results depend on the processing

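Atg16l1 did not pass the adjusted threshold under any of 26 alternatives (adjusted p 0.28 to 0.98). Its log2 fold change was -0.21 to -0.11 with 1 sample left out, the value nearest 0 being that without BDS 25. It was -0.063 with TMM, -0.066 with DESeq2's own size factors, -0.50 with positive-control scaling and -0.034 without BDS 21, BDS 25 and BDS 55. It was 0.033 without those 3 samples and with TMM together, an alternative chosen after seeing the data, and the cause was not tested. Without those 3 samples Tollip, Tbk1 and Irgm1 turned to 0.024, 0.092 and 0.043, and with TMM added to 0.086, 0.15 and 0.098. Tbk1 was 0.0073 with TMM and 0.0031 with DESeq2's own size factors. With positive-control scaling Tmem173 turned to -0.13 and 1 listed gene passed the adjusted threshold, Cybb at a log2 fold change of -1.47, where 0 of the listed genes tested passed in the other alternatives. Cybb was left untested by the filter in 6 of them and had no adjusted p in 1, DESeq2 with housekeeping scaling. In the full series Cybb met the filter mainly through controls, so its p-values are no support for a difference. Over the whole panel, 0 genes passed by edgeR, 6 by DESeq2 with housekeeping scaling, 1 with positive-control scaling and 4 without BDS 7. Unadjusted p-values under 0.05 were found for 44 genes, for 26 to 95 with 1 sample left out (95 without BDS 7, 26 without BDS 25 or BDS 55), 27 with DESeq2's own size factors, 20 without the 3 samples and 8 with TMM added. Counts of Cybb, Bcl2, Tmem173 and Nod2 near background limit what can be read from them. No paired analysis was possible because the groups share 0 replicate numbers.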
